A study of Mus musculus with 383 samples.

Results

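Ly6a, Ly6c1, Ly6d, Ly6e and Lypd3 encode small cell surface proteins of the Ly6/uPAR family. Their levels were followed through single cells of mouse skin squamous cell carcinoma sorted as Epcam-negative or Epcam-positive. They are 5 of the 49585 genes in the deposited count table. The 5 genes were selected on measured levels in these same cells, in which they were lower in the Epcam-negative population, so the difference between the populations is given as a description and carries no test.

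The tumours came from mice carrying Lgr5CreER, p53fl/fl and Rosa26-YFP+/+, among other alleles, and both populations come from mice of the same genotype. Lgr5CreER acts in Lgr5-expressing cells, which in skin are hair follicle stem cells, and YFP marks the cells in which Cre was active. Living YFP-positive cells were sorted into 1 plate by an antibody against Epcam, an epithelial adhesion molecule, and were profiled with a modified Smart-seq2 protocol, which reads whole polyadenylated transcripts without molecular identifiers. Ages and the number of animals or tumours were not among the labels used here.

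The table held 310 Epcam-negative and 70 Epcam-positive single cells. Cells were kept with at least 100000 gene reads, 2000 detected genes, at most 20% mitochondrial reads and at most 50% spike-in reads, which left out 47 of the Epcam-negative and 8 of the Epcam-positive cells. All shares are of the kept cells. The kept Epcam-negative cells had 104330 to 900492 gene reads (median 414731) and the kept Epcam-positive cells had 109743 to 730528 (median 413142). No label names an animal, so each population is 1 sample: cells are not replicates, there is no test between the populations, and every interval is an exact 95% interval that covers counting error only. Epcam-positive cells filled plate rows A to C and Epcam-negative cells the other rows, so the effect of the sorted population cannot be told apart from that of the place on the plate.

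Epcam RNA followed the sort labels in most cells, and Vim and Krt14 differed by level. Epcam was present in 10 Epcam-negative cells (3.802%) against 60 of 62 Epcam-positive cells, where present means at least 5 of 100000 reads drawn from each cell, which corresponds to 50 CPM (reads per 1000000 gene reads). In the Epcam-negative population the summed reads gave 5809 CPM of Vim, an intermediate filament of mesenchymal cells, and 1836 CPM of Krt14, a basal keratin. In the Epcam-positive population they gave 592.3 CPM of Vim and 13311 CPM of Krt14. At least 1 of 10 immune markers was present in 32 Epcam-negative and 7 Epcam-positive cells, most often Cd68, a lysosomal gene of macrophages, in 14 Epcam-negative and 6 Epcam-positive cells. Their levels summed to 22.1 CPM in Epcam-negative and 25.6 CPM in Epcam-positive cells, and Ptprc, which defines leukocytes, was present in no cell of either population. Pecam1, an endothelial marker, was present in 9 Epcam-negative and 7 Epcam-positive cells.

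Proteins of the Ly6/uPAR family share a compact 3-finger fold held by disulfide bonds, and most of them are tethered to the outer membrane by a glycosylphosphatidylinositol (GPI) anchor. Ly6a is Sca-1, widely used to sort mouse progenitor cells. Ly6c1 encodes one form of the Ly6C antigen, Ly6d is found on keratinocytes and early lymphoid cells, and Ly6e is an interferon-inducible member that acts as a receptor for syncytin-A in the mouse placenta. Lypd3, also called C4.4A, is a structural relative of the urokinase receptor found in stratified epithelium.

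On GRCm38, as annotated in GENCODE vM21, 4 of the 5 genes lie together on chromosome 15: Ly6d at chr15:74762056-74763620 (minus strand), Ly6e at chr15:74955051-74959905 (plus strand), Ly6a at chr15:74994877-74998031 (minus strand) and Ly6c1 at chr15:75044018-75048830 (minus strand). They span 286.8 kb. Lypd3 lies apart at chr7:24636550-24641118 (plus strand), and some of its exonic bases are also annotated in Gm26550.

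Ly6a, Ly6c1 and the neighbouring Ly6c2 are close copies, which bears on what a 50-base read can show. A window of 60 coding bases, from 1 exon of each gene on the minus strand, is printed because it separates Ly6a from the Ly6c pair while the pair itself cannot be separated. Capitals mark the 19 positions at which the 3 genes are not all the same.
Ly6a, chr15:74996454-74996513: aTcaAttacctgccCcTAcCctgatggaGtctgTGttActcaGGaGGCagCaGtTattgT
Ly6c1, chr15:75047355-75047414: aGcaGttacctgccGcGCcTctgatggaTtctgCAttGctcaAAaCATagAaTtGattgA
Ly6c2, chr15:75110513-75110572: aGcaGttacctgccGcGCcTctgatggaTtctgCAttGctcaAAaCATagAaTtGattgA
In this window Ly6c2 has 0 differences from Ly6c1 and Ly6a has 19. Over aligned coding bases the identity was 92.8% between Ly6c1 and Ly6c2, with an identical run longer than a read, and 76.5% between Ly6a and Ly6c1, with a longest identical run of 45 bases.

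Of the 50-base stretches in annotated transcripts, 578 of 1764 (32.8%) of Ly6c1 also occur in another gene, most of them in Ly6c2. The share was 18.97% of 1297 for Ly6a, most often with Ly6c1, and 130 of 1600 (8.13%) for Lypd3, all with Gm26550. It was 0 of 695 for Ly6d and 0 of 4184 for Ly6e. Levels of Ly6c1 and, to a smaller degree, Ly6a can therefore depend on how the authors' counting handled reads that fit more than 1 gene. Ly6c2 itself had 3 reads in Epcam-negative cells, against 8303 reads of Ly6c1, and 5.72 CPM in Epcam-positive cells, against 327.1 CPM of Ly6c1.

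Ly6a and Ly6e were abundant in both populations and differed least. Summed over cells, Ly6e had 2719 CPM in Epcam-negative cells and 5650 CPM in Epcam-positive cells, a log2 ratio of -1.06 (-1.06 to -1.05), where every log2 ratio is Epcam-negative over Epcam-positive on the scale log2(CPM + 1). Ly6a had 1498 CPM in Epcam-negative cells and 2697 CPM in Epcam-positive cells, a log2 ratio of -0.85 (-0.86 to -0.83). Both genes had reads in every kept cell of both populations.

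Cell by cell, Ly6e ran from 36.1 CPM (median 2227) to 10518 CPM in Epcam-negative cells, and from 949.9 CPM (median 5617) to 10538 CPM in Epcam-positive cells. The highest cells of both populations were close, and the Epcam-positive cells lacked the low tail. Only 21 Epcam-negative cells (7.98%) exceeded the Epcam-positive median of Ly6e. It was present in 99.2% of Epcam-negative cells, against all 62 Epcam-positive ones.

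Ly6a was more uneven. It ran from 2.06 CPM (median 863.4) to 9594 CPM in Epcam-negative cells, and from 7.5 CPM (median 2424) to 8505 CPM in Epcam-positive cells, and 60 Epcam-negative cells (22.8%) lay above the Epcam-positive median. The share of cells with Ly6a present was 87.1% (82.4 to 90.9) in Epcam-negative and 85.5% (74.2 to 93.1) among Epcam-positive cells. At 100 or more thinned reads the shares were 46.4% (40.2 to 52.6) of Epcam-negative and 74.2% (61.5 to 84.5) of Epcam-positive cells. Among Epcam-positive cells 46 of 62 had at least 1000 CPM, 7 had 96.2 to 441.4 CPM, and 9 were below 50 CPM. None lay between 500 and 1000 CPM, whereas 60.8% of Epcam-negative cells had at least 500 CPM and 47.1% at least 1000 CPM.

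Ly6c1 was a lower and more restricted gene. It had 77.4 CPM in Epcam-negative cells and 327.1 CPM in Epcam-positive cells, a log2 ratio of -2.07 (-2.11 to -2.02). It ran from 0 (median 4.78) to 1796 CPM in Epcam-negative cells and from 0 (median 103.4) to 3299 CPM in Epcam-positive cells. It was present in 87 Epcam-negative cells (33.1%, 27.4 to 39.1), against 35 Epcam-positive cells (56.5%, 43.3 to 69.01). At 1 or more thinned reads the shares were 47.9% (41.7 to 54.1) of Epcam-negative and 62.9% (49.7 to 74.8) of Epcam-positive cells. The populations overlapped widely, with 55 Epcam-negative cells above the Epcam-positive median. Ly6c1 is also an endothelial gene: the 7 endothelial markers summed to 5.32 CPM in Epcam-negative cells, against 15.7 CPM in Epcam-positive ones, and were present in 10 Epcam-negative and 8 Epcam-positive cells. By share, the endothelial marker Pecam1 was present in 3.42% of Epcam-negative and 11.3% of Epcam-positive cells. Without cells holding a defining immune or endothelial marker the log2 ratio of Ly6c1 was -2.13, against -2.07 with all kept cells. The part of endothelial cells in the Ly6c1 levels was not tested.

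**Figure D1:**
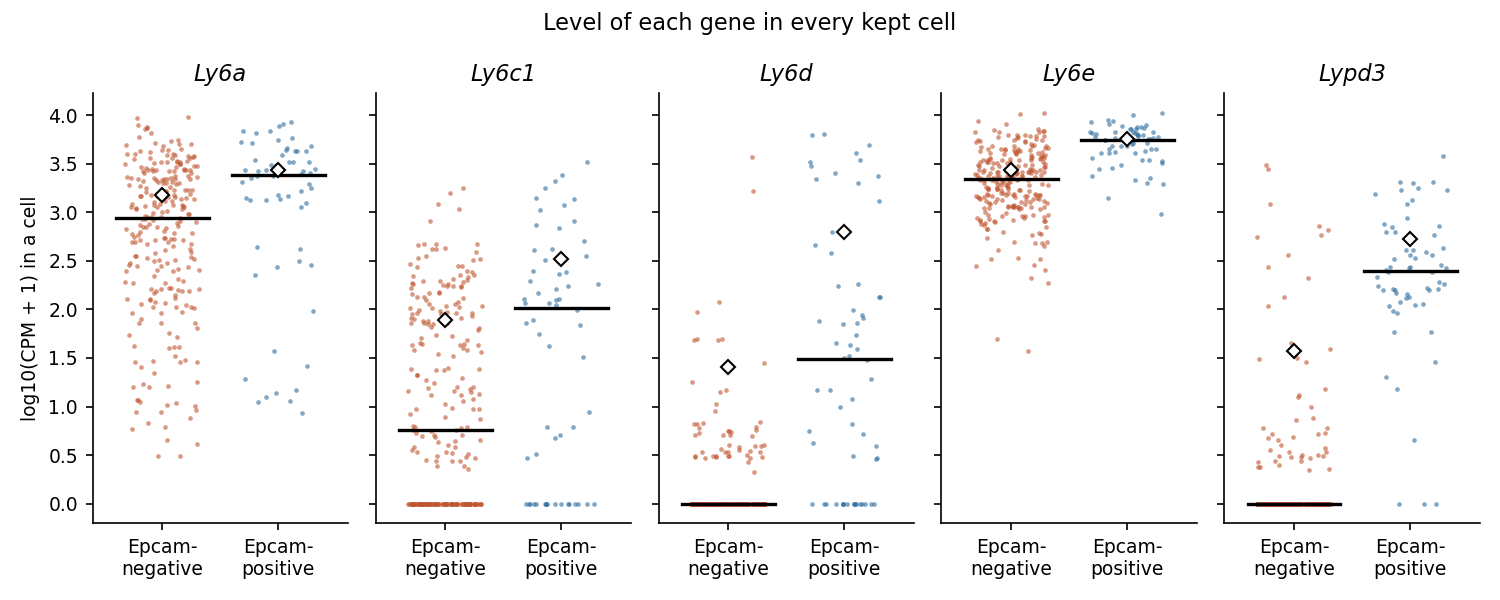
Level of each gene in every kept cell as log10(CPM + 1), with the kept Epcam-negative cells on the left and the 62 kept Epcam-positive cells on the right of each panel. Bars are medians over cells and diamonds are levels of summed reads; Ly6d and Lypd3 sit at 0 in most Epcam-negative cells, whereas Ly6e has at least 36.1 CPM in every cell.

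Ly6d and Lypd3, the members tied to keratinocytes, differed most. Ly6d had 24.6 CPM in Epcam-negative cells and 620.2 CPM in Epcam-positive cells, a log2 ratio of -4.60 (-4.66 to -4.54). Lypd3 had 35.96 CPM in Epcam-negative cells and 532.2 CPM in Epcam-positive cells, a log2 ratio of -3.85 (-3.90 to -3.80). Both genes had a median of 0 over Epcam-negative cells.

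These summed levels hide different distributions. Ly6d was present in 7 Epcam-negative cells (2.66%, 1.08 to 5.41), against 26 Epcam-positive cells (41.9%, 29.5 to 55.2). On all reads, 4 Epcam-negative and 26 Epcam-positive cells had at least 50 CPM of Ly6d. In Epcam-negative cells 1 cell held 68.8% of all Ly6d reads at 3752 CPM, and without it the level was 7.72 CPM. In Epcam-positive cells Ly6d ran from 0 (median 30.0) to 6422 CPM, and 5 cells held 50% of its reads. At least 1000 CPM of Ly6d was reached by 2 Epcam-negative cells (0.76%) and 12 Epcam-positive cells (19.4%).

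Lypd3 was spread over nearly all Epcam-positive cells. Presence was found in 12 Epcam-negative cells (4.56%, 2.38 to 7.83), against 55 Epcam-positive cells (88.7%, 78.1 to 95.3). It ran from 0 to 3070 CPM in Epcam-negative cells and from 0 (median 248.3) to 3836 CPM in Epcam-positive cells. In the Epcam-negative population 2 cells held 50% of its reads. Only 9 Epcam-negative cells (3.42%) lay above the Epcam-positive median, and 3 of 62 Epcam-positive cells had no read.

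**Figure D2:**
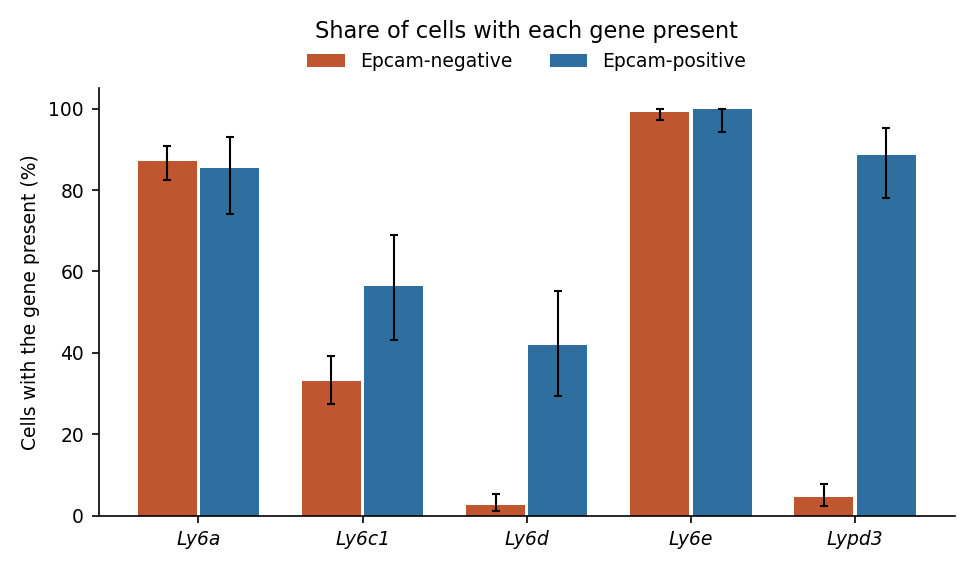
Share of cells (%) with each gene present, at 5 or more of 100000 thinned reads, in Epcam-negative cells (left bar) and the 62 Epcam-positive cells (right bar), with exact 95% intervals for counting error. At this limit the shares of the populations were closest for Ly6e and Ly6a. At 1 thinned read those of Ly6c1 were 47.9% of Epcam-negative and 62.9% of Epcam-positive cells. At 100 thinned reads those of Ly6a were 46.4% of Epcam-negative and 74.2% of Epcam-positive cells. Each population is 1 sample, so the intervals do not serve to compare populations.

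Levels of different genes were compared per kilobase of exon. In Epcam-negative cells the order was Ly6a at 1243 CPM per kilobase, Ly6e at 718.5, Ly6c1 at 46.1, Ly6d at 33.1 and Lypd3 at 21.8. In Epcam-positive cells it was Ly6a at 2238, Ly6e at 1493, Ly6d at 833.6, Lypd3 at 322.7 and Ly6c1 at 195.04 CPM per kilobase. Ly6a ranked 24 of 9574 genes in Epcam-negative and 15 of 9574 in Epcam-positive cells, so it was among the most abundant transcripts of both. Ly6d and Lypd3 stood below Ly6c1 in Epcam-negative cells and above it in Epcam-positive ones, and among all measured genes Ly6d ranked 1548 in Epcam-negative against 54 in Epcam-positive cells. Without the cell with most reads of each gene, Ly6d had 10.4 and Lypd3 15.5 CPM per kilobase in Epcam-negative cells, which turns the order of these 2. With 1 sample a population, the spread of these orders between samples is not known.

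Against all genes, 4 of the 5 were at least 2-fold lower in Epcam-negative cells, all but Ly6a. Of the 9574 genes with at least 10 CPM in either population, 1233 (12.9%) were at least 2-fold lower in Epcam-negative cells and 1467 (15.3%) at least 2-fold higher, with a median log2 ratio of -0.08. Since the 5 were selected on this contrast, nothing is read from that count. Ly6e was short of 2-fold with TMM (log2 ratio -0.92) and median-of-ratios scaling (-0.94), and Ly6a reached it with spike-in scaling (-1.20). Median gene reads per spike-in read were 157.2 in Epcam-negative cells, against 221.1 in Epcam-positive ones.

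Most cells carried several of the genes at once. In Epcam-negative cells 31 had 1 of the 5 present, 53.6% had 2, 83 cells had 3, 6 had 4 and 2 had all 5. In Epcam-positive cells 9 had 2, 13 had 3, 26 had 4 and 14 had all 5. No cell lacked all of them. The most frequent number was thus 2 in the Epcam-negative and 4 in the Epcam-positive population.

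Within a population, Ly6a, Ly6c1 and Ly6e varied together from cell to cell, and Ly6d and Lypd3 did not join them. Spearman's rho between Ly6a and Ly6c1 over cells reached 0.60 in the Epcam-negative population and 0.74 in the Epcam-positive one, on reads thinned to equal depth. Between Ly6a and Ly6e it reached 0.49 in Epcam-negative against 0.62 in Epcam-positive cells, and between Ly6c1 and Ly6e 0.33 in Epcam-negative against 0.59 in Epcam-positive cells. Between Ly6a and Lypd3 it was -0.08 in Epcam-negative against -0.13 in Epcam-positive cells. These correlations are taken over the kept cells of 1 sample per population, which share a plate and a sort, and carry no p-value.

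**Figure D3:**
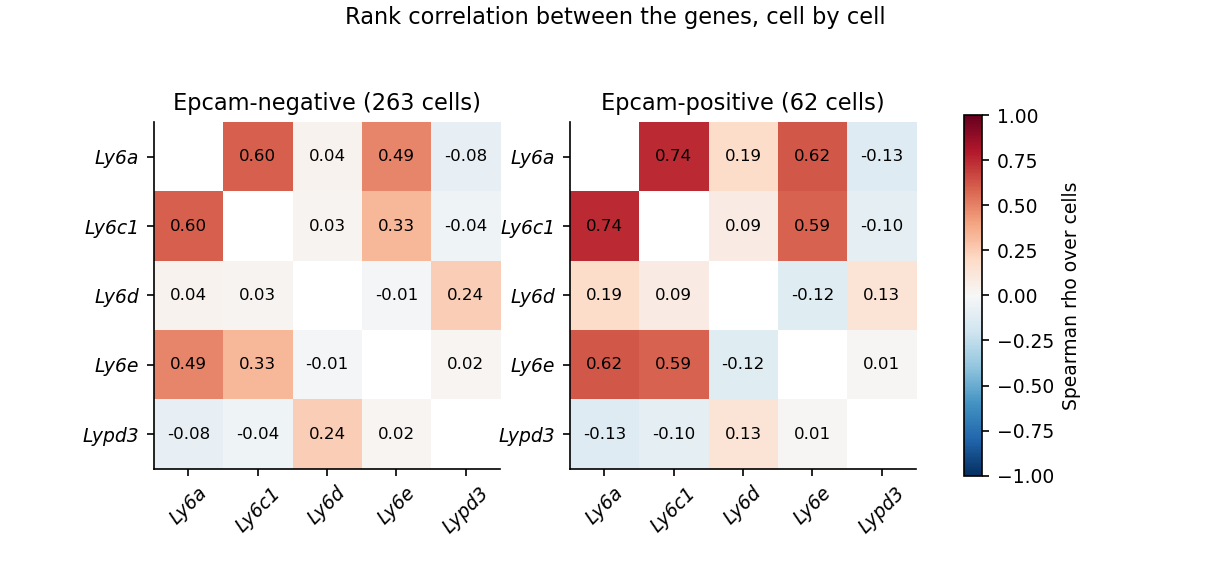
Spearman rho over cells between each pair of genes on thinned reads, in Epcam-negative cells (left) and Epcam-positive cells (right). Ly6a, Ly6c1 and Ly6e share values of 0.33 to 0.74, and the pair Ly6d and Lypd3 has 0.24 in Epcam-negative against 0.13 in Epcam-positive cells.

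Nearly all cells with Ly6c1 also had Ly6a. In the 1 draw of thinned reads, the 87 Epcam-negative cells and the 35 Epcam-positive cells with Ly6c1 present also had Ly6a present. Ly6a was present in most cells of either population. Both genes were present in 33.1% of Epcam-negative cells, where the product of their separate shares is 28.8%. In Epcam-positive cells it was 56.5%, where the product is 48.3%. On all reads, 82 of 84 Epcam-negative cells and 36 of 36 Epcam-positive cells with at least 50 CPM of Ly6c1 had at least 50 CPM of Ly6a. Ly6a did not carry Ly6c1 with it in a fixed ratio: among cells with at least 1000 CPM of Ly6a, Ly6c1 gave 0 to 54.7 reads per 100 Ly6a reads (median 2.18) in Epcam-negative cells and 0 to 50.6 (median 6.40) in 46 Epcam-positive cells. Of these Ly6a-high cells, 25 Epcam-negative and 7 Epcam-positive cells had no Ly6c1 read. The part of shared reads in the correlation was not tested.

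Ly6d and Lypd3 met in few Epcam-negative cells and in most Epcam-positive cells that had Ly6d. Both were present in 4 Epcam-negative cells (rho 0.24 over the population) and in 24 Epcam-positive cells (rho 0.13). In Epcam-negative cells this is 1.52% of cells, where the product of their separate shares is 0.121%. In Epcam-positive cells it is 38.7% of cells, close to the product of 37.2%, and 92.3% of the cells with Ly6d present. The Epcam-negative overlap rests on 1 draw of thinned reads. On all reads, 4 Epcam-negative cells had at least 50 CPM of Ly6d, with 717.3, 3070, 8.99 and 0 CPM of Lypd3.

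The genes most like each member were taken as those with the highest rho of at least 0.4, among genes present in at least 20% of a population's cells. In Epcam-negative cells (5053 other genes compared) Ly6a was most like Ly6c1, Ly6e and S100a4 (rho 0.41), a calcium-binding protein of motile cells. Ly6c1 was most like Ly6a and Sncg (rho 0.45), a synuclein. Ly6e passed with Ly6a alone, and Ly6d and Lypd3, each present in few Epcam-negative cells, had no gene at 0.4.

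In Epcam-positive cells (5250 genes compared) more genes reached 0.4 over fewer cells: 2.10% of genes for Ly6a, 3.85% for Ly6c1, 2.95% for Ly6e, 0.457% for Lypd3 and 0.0952% for Ly6d. Ly6a was most like Ly6c1, Sema3c (rho 0.63), a secreted semaphorin, and Ly6e. Ly6c1 was most like Egln3 (rho 0.75), an oxygen-sensing prolyl hydroxylase, Ly6a, and the glycolytic gene Ldha (rho 0.68). Ly6e was most like C1s1 (rho 0.70), a complement protease, Ly6a and Ly6c1.

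Lypd3 stood with a separate group in Epcam-positive cells. Its nearest genes were Sfn (rho 0.62), which encodes the epithelial 14-3-3 protein, Cdkn1a (rho 0.56), a p53-responsive inhibitor of the cell cycle, and Smox (rho 0.52), spermine oxidase. Ly6d was nearest to Rprd1b (rho 0.52), Scamp1 (rho 0.48) and Perp (rho 0.42), a desmosomal membrane protein. In Epcam-positive cells the rho with gene reads per spike-in read, a measure of RNA content, was 0.45 for Ly6e, 0.34 for Ly6c1 and 0.25 for Ly6a, against 0.02 for Ly6d and -0.04 for Lypd3. In Epcam-negative cells it was 0.17 for Ly6e, 0.15 for Ly6c1 and 0.09 for Ly6a. The part of RNA content in the levels and in the correlations of these 3 genes was not tested.

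Within the Epcam-negative population, Ly6d and Lypd3 lay mainly in cells with epithelial transcripts. The 10 Epcam-negative cells with Epcam present had 666.9 CPM of Ly6d and 669.1 CPM of Lypd3, and the other Epcam-negative cells had 1.89 CPM of Ly6d and 13.6 CPM of Lypd3. Single cells carried much of these sums. Leaving out the cell with most reads of the gene, the cells with Epcam had 197.8 CPM of Ly6d and 410.8 CPM of Lypd3, and the others had 1.50 CPM of Ly6d and 2.80 CPM of Lypd3.

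By number of cells, 7 of the 10 Epcam-negative cells with Epcam had Lypd3 present, against 5 of the others (1.98%), and 4 of the 10 had Ly6d, against 3 of the others (1.19%). Ly6a had 1313 CPM in Epcam-negative cells with Epcam present and 1505 CPM in those without, and Ly6e had 3155 CPM with and 2703 CPM without. Ly6c1 had 36.6 CPM with, of which 10.3 CPM remained without its top cell, and 78.8 CPM without. Over the Epcam-negative cells the rho of Lypd3 with Epcam was 0.43.

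Krt14 split the Epcam-negative cells more evenly, and all 12 cells with Lypd3 present were on one side. Krt14 was present in 46.8% of Epcam-negative cells. Lypd3 was present in 12 of them (9.76%) and in 0 of the 140 cells without Krt14, a share of at most 2.60% at the upper bound, at 79.3 CPM with Krt14 and 0.27 CPM without. Of the 12 Lypd3 cells, 12 had Krt5 present, 10 had Trp63, the master regulator of stratified epithelium, 7 had Epcam and 6 had Vim. Vim was present in 100% of Epcam-negative cells without Lypd3, so every Epcam-negative cell that lacked Vim had Lypd3 present. Ly6d was present in 6 cells with Krt14 and in 1 of the 140 without.

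Ly6c1 also differed by Krt14. It was present in 44.7% (35.7 to 53.9) of Epcam-negative cells with Krt14 and in 22.9% (16.2 to 30.7) of those without, with 106.8 CPM with Krt14 and 53.1 CPM without. Cells with Ly6c1 present had Krt5 present in 45.98% of cases, against 15.3% of those without. Ly6a had 1714 CPM with Krt14 and 1320 CPM without, and Ly6e had 2916 CPM with and 2556 CPM without. Median depth was similar, at 397230 gene reads with Krt14 and 429790 without.

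**Figure D4:**
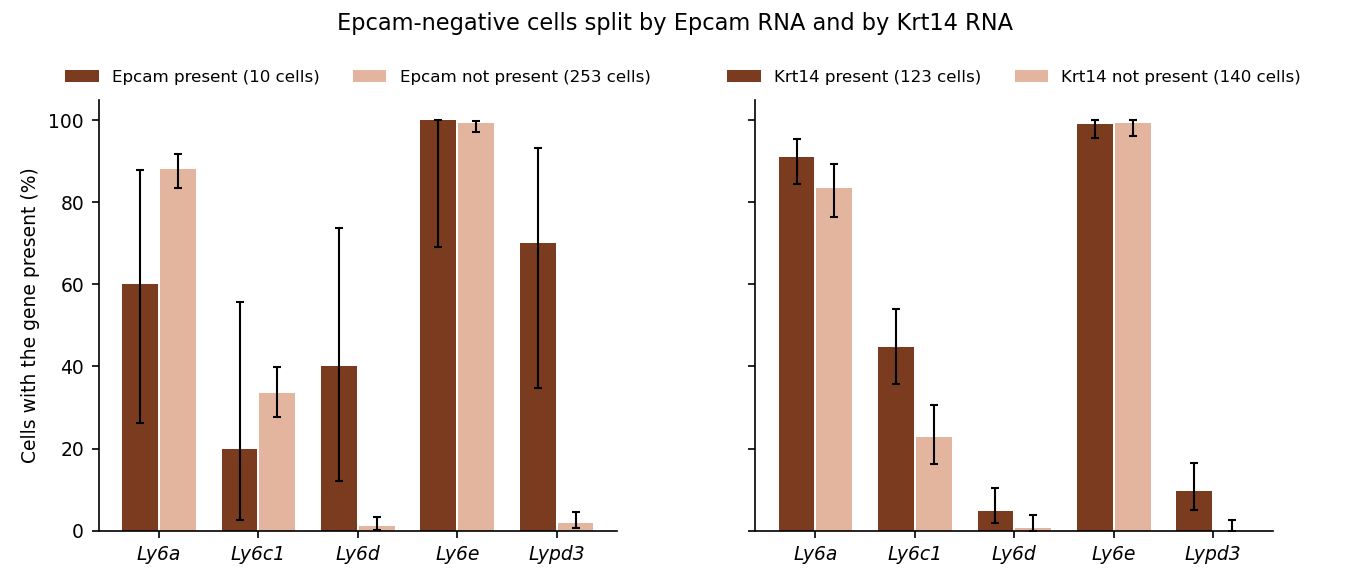
Share of Epcam-negative cells (%) with each gene present, split by presence of Epcam RNA (left panel) and of Krt14 RNA (right panel), with exact 95% intervals for counting error. Lypd3 was present in 70.0% of the 10 cells with Epcam RNA and in 1.98% of those without.

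Integrin alpha V (Itgav), integrin beta 3 (Itgb3) and Vcam1, adhesion molecules, gave another split. In the 77.6% of Epcam-negative cells with any of them present Lypd3 had 17.3 CPM and Ly6d 2.36 CPM, and in the 59 cells with none Lypd3 had 117.3 CPM and Ly6d 121.7 CPM. Leaving out the top cell of the gene, Lypd3 had 4.56 CPM with any and 63.7 CPM with none, and Ly6d had 1.90 CPM with any and 31.7 CPM with none. Lypd3 was present in 4 cells with any (1.96%) and in 8 with none (13.6%). Ly6c1, Ly6a and Ly6e went the other way. Ly6c1 had 85.9 CPM in cells with any and 40.2 CPM in cells with none, and Ly6e had 2842 CPM with any and 2180 CPM with none. Ly6a had 1543 CPM with any and 1300 CPM with none, and was present in 91.7% of cells with any and 71.2% with none. Median depth differed, at 430644 gene reads with any and 334092 with none, and its part was not tested.

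In Epcam-positive cells the mesenchymal gene Vim divided Lypd3 by level rather than by presence. The 31 Epcam-positive cells with Vim present had 299.8 CPM of Lypd3 (median 172.4), and the 31 without had 776.2 CPM (median 327.3). Lypd3 was present in 26 cells with Vim and in 29 cells without. Ly6a had 2717 CPM with Vim (median 2656) and 2675 CPM without (median 2073), and was present in 29 cells with Vim and 24 cells without. Ly6d had close sums, 623.4 CPM with Vim and 616.9 CPM without, but a median of 13.7 CPM with and 44.05 CPM without, and was present in 11 cells with and 15 cells without. Over these cells Lypd3 had a rho of -0.39 with the summed reads of the interferon genes.

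Most of the wider family had low levels or no reads. Of 51 listed Ly6/uPAR genes 44 are in the table, and 10 had at least 10 CPM in either population, the 5 genes included. Of the other 39 genes in the table, 12 had no read and 22 had reads under 10 CPM. Of the 10 measured, 9 were lower in Epcam-negative cells and none was at least 2-fold higher. At least 2-fold lower were 6, beside 12.9% of all measured genes, and 4 of the 6 were selected on this contrast. The median log2 ratio was -1.56, against -0.08 over all measured genes. Since 5 of these 10 are the selected genes, nothing is read from these values, and the other 5 are given one by one.

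Lypd6b, a relative known for acting on nicotinic receptors, had 3.16 CPM in Epcam-negative and 33.8 CPM in Epcam-positive cells. Pinlyp had 1 read in Epcam-negative cells and 31.4 CPM in Epcam-positive cells, where 10 of 62 cells had it present, a log2 ratio of -5.00 (-5.02 to -4.94). These 2 were the only other measured family genes at least 2-fold lower in Epcam-negative cells. Both were under 10 CPM there, so they were measured only through the Epcam-positive cells.

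Lynx1, a neighbour of Ly6d that modulates nicotinic receptors, had 9.70 CPM in Epcam-negative and 18.4 CPM in Epcam-positive cells. It too was measured only through the Epcam-positive cells. Cd59a, an inhibitor of complement, had 48.9 CPM in Epcam-negative and 69.5 CPM in Epcam-positive cells, and 46.7 CPM in the Epcam-positive cells without the cell with most reads. Plaur, the urokinase receptor, was the one measured relative on the higher side, with 116.3 CPM in Epcam-negative and 80.6 CPM in Epcam-positive cells, a log2 ratio of 0.52 (0.46 to 0.59). Its ligand Plau had 177.3 CPM in Epcam-negative and 147.9 CPM in Epcam-positive cells.

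The chromosome 15 neighbourhood was mostly silent between the expressed genes. From Psca to Gpihbp1 GENCODE lists 50 genes, of which 46 are in the table and 5 were measured: Lynx1, Ly6d, Ly6e, Ly6a and Ly6c1. Ly6i, between Ly6e and Ly6a, had 9 reads in Epcam-negative and 2 reads in Epcam-positive cells. Ly6k, near Ly6d, had no read in Epcam-negative and 94 reads in Epcam-positive cells. Psca, Cyp11b1, Cyp11b2, Lypd2 and Gpihbp1 had none in either.

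The enzymes that make and attach the GPI anchor were also counted. Of 20 measured genes of this list 14 were lower and 6 higher in Epcam-negative cells, and the median log2 ratio was -0.45. At least 2-fold lower were 2 of the 20, beside 12.9% of all measured genes, and none was 2-fold higher. Pgap2, which remodels the lipid of the anchor, had 38.7 CPM in Epcam-negative and 119.7 CPM in Epcam-positive cells. Pigo, an ethanolamine phosphate transferase of the pathway, had 5.54 CPM in Epcam-negative and 13.7 CPM in Epcam-positive cells. It was thus measured only through the Epcam-positive cells. The third by size, Pigf, had a log2 ratio of -0.85.

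Interferon-response genes, a class to which Ly6e belongs in many cell types, went the other way by number of genes. In Epcam-negative cells 17 of 22 measured genes were higher, 9 by at least 2-fold beside 15.3% of all measured genes. None was 2-fold lower, and the median log2 ratio was 0.77. Most of the 9 had under 10 CPM in Epcam-positive cells and were measured only through the Epcam-negative ones, so nothing is read from the count. The whole list summed to 2155 CPM in Epcam-negative and 1990 CPM in Epcam-positive cells. Its most abundant gene, Ifitm3, had 1198 CPM in Epcam-negative and 1247 CPM in Epcam-positive cells. Bst2, tetherin, had 31.4 CPM in Epcam-negative and 4.55 CPM in Epcam-positive cells, and Ifih1, an RNA sensor, had 10.5 CPM in Epcam-negative and 1.69 CPM in Epcam-positive cells. Ifit1 had 20.03 CPM in Epcam-negative cells, which became 7.77 CPM on leaving out its top cell, and 1 read in Epcam-positive cells. Within Epcam-negative cells the rho of the summed list was 0.12 with Ly6e, 0.23 with Ly6a and 0.23 with Ly6c1.

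Genes of keratinocyte differentiation were counted in the same way. All 9 measured genes of this list were lower in Epcam-negative cells, 8 by at least 2-fold beside 12.9% of all measured genes, with a median log2 ratio of -2.67. Several of the 8, Calml3 among them, were under 10 CPM in Epcam-negative cells and so were measured only through the Epcam-positive ones. For that reason nothing is read from the count. Lor, of the same list but under 10 CPM in both populations, had 4.04 CPM in Epcam-negative and 0.56 CPM in Epcam-positive cells. Krtdap, a keratinocyte differentiation-associated protein, had 60.1 CPM in Epcam-negative and 735.5 CPM in Epcam-positive cells. Calml3, an epithelial calmodulin-like protein, had 0.18 CPM in Epcam-negative and 31.8 CPM in Epcam-positive cells. Over Epcam-negative cells the rho with the summed list was 0.20 for Lypd3 and 0.08 for Ly6d, against 0.23 for Ly6c1, 0.16 for Ly6e and 0.13 for Ly6a. With Krtdap alone it was 0.12 for Lypd3 and 0.13 for Ly6d, against 0.32 for Ly6c1 and 0.25 for Ly6a. Few Epcam-negative cells had Ly6d or Lypd3 present, and over them the list did not follow these genes more than the others. Over Epcam-positive cells the rho with the summed list was 0.27 for Ly6d and 0.25 for Lypd3. There it was 0.22 for Ly6c1, 0.13 for Ly6a and 0.09 for Ly6e. With Krtdap alone it was 0.28 for Ly6d and 0.19 for Lypd3 there, against 0.27 for Ly6c1, 0.22 for Ly6a and 0.20 for Ly6e.

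Control wells and the cells that were left out set the background. The well with 50 Epcam-negative cells had 154897 gene reads and no Epcam read, and held 3951 CPM of Ly6a, 174.3 CPM of Ly6c1, 225.96 CPM of Ly6d (35 reads), 3125 CPM of Ly6e and 109.8 CPM of Lypd3 (17 reads). It is 1 well with no replicate, and its Ly6d and Lypd3 exceed the 24.6 and 35.96 CPM of the single Epcam-negative cells. A well without a cell, sorted from the Epcam-negative gate, had 0.389 Ly6a and 1.09 Ly6e reads per 1000 spike-in reads, and 0 reads of Ly6c1, Ly6d and Lypd3. The kept Epcam-negative cells had 184.7 Ly6a and 335.2 Ly6e reads per 1000 spike-in reads.

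The well without a cell from the Epcam-positive gate was not empty of RNA. Per 1000 spike-in reads it had 58.2 reads of Ly6a, 3.77 of Ly6c1, 13.7 of Ly6d, 73.8 of Ly6e and 3.04 of Lypd3. The kept Epcam-positive cells had 424.2 of Ly6a, 51.4 of Ly6c1, 97.6 of Ly6d, 888.8 of Ly6e and 83.7 of Lypd3. Per spike-in read each gene was thus above this well in the pooled cells, but a cell with a low level cannot be told apart from such a well. As CPM the well had 4827 of Ly6a, 1139 of Ly6d and 6116 of Ly6e, above the 2697, 620.2 and 5650 CPM of the kept Epcam-positive cells. Its 312.4 CPM of Ly6c1 and 251.9 CPM of Lypd3 were below the 327.1 and 532.2 CPM of these cells.

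The 8 Epcam-positive cells that were left out differed from the kept ones, with 73.7 CPM of Ly6a (26 reads), 8.50 CPM of Ly6c1 (3 reads), 2139 CPM of Ly6d, 1017 CPM of Ly6e and 535.5 CPM of Lypd3. Ly6a, Ly6c1 and Ly6e were low in them and Ly6d was high. The 47 Epcam-negative cells that were left out had 1339 CPM of Ly6a, 25.9 CPM of Ly6c1, 44.6 CPM of Ly6d, 2416 CPM of Ly6e and 23.4 CPM of Lypd3. With all cells kept, the 5 log2 ratios ranged from -4.62 for Ly6d to -0.83 for Ly6a.

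The size of the Ly6d and Lypd3 differences moved with the cells used. Without the 10 Epcam-negative cells with Epcam RNA, the log2 ratio was -7.75 for Ly6d and -5.19 for Lypd3, and -0.84 for Ly6a, -2.04 for Ly6c1 and -1.06 for Ly6e. Without the cell with most reads of the gene in each population it was -5.95 for Ly6d and -4.19 for Lypd3. Within plate columns 1 to 12 it was -3.31 for Ly6d and -4.90 for Lypd3, and within columns 13 to 24 it was -5.92 for Ly6d and -2.71 for Lypd3. All of these were below 0, as were the values of the other 3 genes. Since the genes were selected as lower in these same Epcam-negative cells, nothing is read from the sign.

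**Figure D5:**
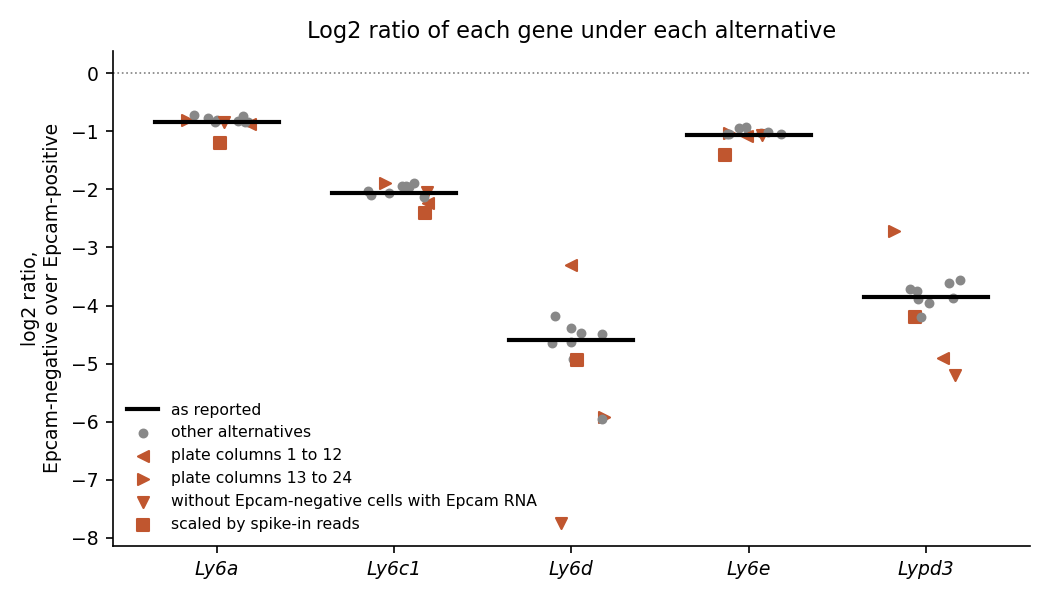
Log2 ratio of each gene, Epcam-negative over Epcam-positive, as reported (bar) and under 12 alternatives (points). All 60 values are below 0, in genes that were selected as lower in the Epcam-negative cells of these same data. Ly6d spans -7.75 to -3.31 and Lypd3 -5.19 to -2.71, whereas Ly6a spans -1.20 to -0.72.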

How the data were processed

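The deposited table holds raw read counts per gene, made by the authors with cutadapt 1.13, STAR 2.5.2b and HTSeq 0.6.0 on GRCm38, per the submitters' processing notes; annotation release and strand setting: not given in the sources used here. It covers 383 wells, 49585 genes and 92 spike-ins. Nextera XT does not mark strand, and PCR copies were not collapsed by molecular identifiers. Gene IDs were matched to symbols (49326 matched) and to GENCODE vM21. Cells were kept with at least 100000 gene reads and 2000 genes, at most 20% mitochondrial and at most 50% spike-in reads. Levels are CPM of reads summed over a population's cells; a measured gene has at least 10 CPM in either population; log2 ratios use a pseudocount of 1 CPM. Presence and Spearman's rho use 100000 reads drawn per cell. Intervals are exact (Poisson, Clopper-Pearson, conditional binomial). With 1 sample per population no test was run, and no doublet caller was run on these wells sorted as single cells. TMM factors (edgeR 4.0.16) and size factors (DESeq2 1.42.0) were alternatives. The ratio, its interval and the thinning were tested on simulated data. Named genes were the 5 genes, measured genes of the family list, the 3 most different genes of the GPI and interferon lists, and the 3 most alike genes at a rho of at least 0.4; some differentiation, marker and neighbouring genes were added after their values were seen. The 5 genes and the lists were chosen with earlier results of these data known. The full genotype of the mice is not reported here.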

Additional observations from a re-analysis of the deposited data

Results flagged for a closer look

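Wells sorted without a cell held reads of the 5 genes, which lie outside the comparison of single cells. Per 1000 spike-in reads, the well from the Epcam-positive gate, with 99241 gene reads and 8248 genes, had 58.2 reads of Ly6a, 3.77 of Ly6c1, 13.7 of Ly6d, 73.8 of Ly6e and 3.04 of Lypd3. The well from the Epcam-negative gate, with 4018 gene reads, had 0.389 of Ly6a and 1.09 of Ly6e. Each of these rests on more reads than the 3 that a count of 0 allows. The source of these reads was not tested.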

How the results depend on the processing

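All 60 log2 ratios of the 5 genes under 12 alternatives were below 0, and 47 were -1 or lower. The 5 genes were selected as lower in the Epcam-negative cells of these same data, so nothing is read from the sign. In the order Ly6a, Ly6c1, Ly6d, Ly6e and Lypd3, the log2 ratios were -0.72, -1.93, -4.47, -0.92 and -3.72 with TMM, -0.74, -1.96, -4.49, -0.94 and -3.74 with median-of-ratios factors, and -1.20, -2.41, -4.95, -1.41 and -4.20 with spike-in scaling. These scalings moved the median of all measured genes by 0.13, 0.11 and -0.34. In the same order they were -0.88, -2.24, -3.31, -1.08 and -4.90 in plate columns 1 to 12, and -0.80, -1.90, -5.92, -1.03 and -2.71 in columns 13 to 24. Stricter limits on cells (250000 gene reads, 3000 genes, 10% mitochondrial and 25% spike-in reads) gave -0.80, -1.89, -4.39, -1.03 and -3.88. Without cells holding a defining immune or endothelial marker they were -0.78, -2.13, -4.64, -1.01 and -3.96. No limit on cells gave -0.83 for Ly6a and -1.04 for Ly6e. The mean of each cell's CPM gave -0.83 for Ly6a, -4.92 for Ly6d and -3.61 for Lypd3, and a pseudocount of 10 CPM gave -1.95 for Ly6c1, -4.19 for Ly6d and -3.56 for Lypd3. Without the Epcam-negative cells with Epcam present Ly6d was at -7.75 and Lypd3 at -5.19, and without the top cell of each population Ly6d was at -5.95 and Lypd3 at -4.19. With no minimum level, 10 family genes were 2-fold or more lower in Epcam-negative cells and 1 was 2-fold or more higher. Other presence rules moved 21 of 30 shares outside the reported interval. The rho values were recomputed in plate column ranges and under stricter limits, chosen after seeing the data: 3 of 24 moved by more than 0.1, with Ly6a and Ly6e over Epcam-negative cells at 0.38 in columns 1 to 12 and 0.61 in columns 13 to 24, and none changed sign. The causes were not tested. No paired analysis was possible because each population is 1 sample and no replicate numbers are shared in the labels. Depth limits low levels: presence stands for 5 reads, and 1 sample per population leaves the spread between tumours unmeasured.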
